A study of Drosophila melanogaster with 2 samples.

Results

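Near-start intron peaks are peaks of the homeodomain protein Lbe whose summit lies in an intron of a protein-coding gene, outside every annotated exon. The nearest transcription start site (TSS) is 501 to 2000 bp away, counting starts of protein-coding genes and of non-coding RNA (ncRNA) genes. The peaks came from the authors' list past the irreproducible discovery rate (IDR) threshold in the genome build dm6. Of its 4753 peaks on X, on chromosome 4 and on the 4 arms of chromosomes 2 and 3, 618 met this rule, a share of 13.0% (95% Wilson interval 12.1 to 14.0). The list held 4782 peaks in all, and the remaining 29 were mitochondrial. The rule used position and annotation alone, and no signal.

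The series mapped Lbe by ChIP-seq, in which chromatin bound to a tagged protein is precipitated and sequenced, in whole Drosophila melanogaster embryos of 0 to 24 h, male and female embryos pooled. Both samples were biological replicates of a single group, the transgenic strain lbe-GFP, which stably expresses Lbe with GFP at its C-terminus. The precipitation was with an antibody against GFP, although the labels' antibody field reads lbe. Chromatin was sonicated to 200 to 800 bp. The labels do not say whether the line also keeps an untagged lbe gene. A control is named in the labels and was not analysed here. There was no second condition, so the peaks are compared with other peaks, with the surrounding sequence and between the replicates.

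Ladybird early is a homeodomain transcription factor of the NK homeobox cluster that acts in the identity of muscle, heart and neural cells, and homeodomains of many kinds recognise short cores rich in A and T. The introns close to the start of a Drosophila gene are known to hold enhancers, insulators and alternative promoters, and many genes start from more than 1 promoter. A whole embryo mixes all tissues, so a peak here is a position found in the pool and cannot be assigned to a cell type.

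The strongest of these peaks came with sequences of different make-up, and they are shown first because the base composition and words described later can be read in them. Each line is 151 bases of the RefSeq release 6 sequence on the plus strand, centred on the summit, with capitals marking any of the 10 short words searched, on either strand. The first 4 are the strongest members outside the right arm of chromosome 2, from which no sequence is shown: the intron of CG11050 (chr2L:6612640-6612790), that of ush (chr2L:480975-481125), that of CG32772 (chrX:4910322-4910472) and that of Lk6 (chr3R:11760964-11761114). The other 3 are the strongest such members with a given word in these bases: jigr1 with TAACTA (chr3R:25640567-25640717), Tis11 with GAGAGA (chrX:12666525-12666675) and CG9837 with AGATAA (chr3R:8811607-8811757). The strongest with TAATTA was CG11050 itself.
CG11050: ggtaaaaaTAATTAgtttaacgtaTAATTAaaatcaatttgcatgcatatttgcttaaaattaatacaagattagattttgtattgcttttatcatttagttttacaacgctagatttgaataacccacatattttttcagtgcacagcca
ush: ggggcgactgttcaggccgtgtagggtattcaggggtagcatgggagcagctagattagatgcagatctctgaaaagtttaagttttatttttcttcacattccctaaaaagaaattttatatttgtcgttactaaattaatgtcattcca
CG32772: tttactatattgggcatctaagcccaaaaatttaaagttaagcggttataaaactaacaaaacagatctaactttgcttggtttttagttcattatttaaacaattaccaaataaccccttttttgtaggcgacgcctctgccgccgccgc
Lk6: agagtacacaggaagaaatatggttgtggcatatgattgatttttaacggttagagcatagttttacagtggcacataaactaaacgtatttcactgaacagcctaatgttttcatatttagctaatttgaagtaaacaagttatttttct
jigr1: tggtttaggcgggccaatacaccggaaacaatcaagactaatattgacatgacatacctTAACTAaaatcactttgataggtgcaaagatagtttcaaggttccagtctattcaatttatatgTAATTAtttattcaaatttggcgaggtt
Tis11: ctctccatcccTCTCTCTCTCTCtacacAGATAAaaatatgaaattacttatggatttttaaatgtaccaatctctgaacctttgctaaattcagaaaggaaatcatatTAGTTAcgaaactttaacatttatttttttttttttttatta
CG9837: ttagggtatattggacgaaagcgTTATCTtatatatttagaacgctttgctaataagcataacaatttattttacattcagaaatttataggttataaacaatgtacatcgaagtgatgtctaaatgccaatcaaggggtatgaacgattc

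The CG11050 window was 74.8% A and T and held TAATTA at both 67 and 51 bases before the summit, counting to the first base of the word. The windows of ush (62.3% A and T), CG32772 (63.6%) and Lk6 (68.9%) held none of the 10 words. In Tis11, which encodes a zinc-finger protein that promotes mRNA decay, the GAGAGA word was read on the minus strand as an unbroken run of TC repeats, so its 4 matches overlap each other. A match is a run of letters and does not show that a factor binds there.

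Near-start intron sequence held these summits at a density well above that of introns farther from a start. The 618 summits lay in 10.8 Mb of eligible sequence, which is 57.5 per Mb (95% Poisson interval 53.0 to 62.2). Distal introns, those more than 2000 bp from any such start, held 21.8 per Mb (20.4 to 23.4), intergenic sequence 16.7, exons outside promoters 3.81 and promoters, within 500 bp of a start, 150. The density was 2.63 times that of distal introns (exact conditional 95% interval 2.37 to 2.92). All intervals here cover the counting of regions only and treat peaks as independent. The number of reads is unknown, since the files list regions.

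Both replicates gave nearly the same density. Each replicate's own list was cut to its 4782 strongest regions, the length of the IDR list. Of these, 615 of replicate 1 lay in near-start introns (57.2 per Mb) and 600 of replicate 2 (55.8 per Mb). The ratio to distal introns was 2.62 in replicate 1 and 2.43 in replicate 2. The 5 large arms differed little, from 55.0 per Mb on 3L to 60.7 per Mb on 3R, and the small chromosome 4 held 2 members.

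The summits thinned out with distance inside the window itself. From 501 to 1000 bp there were 311 members, 74.6 per Mb (66.5 to 83.4). From 1001 to 1500 bp there were 166, or 46.8 per Mb (39.9 to 54.5), and from 1501 to 2000 bp 141, or 46.5 per Mb (39.1 to 54.8). The nearest 500 bp thus had 1.61 times the density of the farthest 500 bp (1.31 to 1.97), and the ratio was 1.64 in replicate 1 and 1.65 in replicate 2. The fall lay between the first and the middle bin, and the later bins had overlapping intervals.

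The members lay on both sides of their nearest start. Downstream of it, in the direction of transcription, there were 417 members at 59.6 per Mb, and upstream 201 members at 53.6 per Mb. The ratio of 1.11 had an interval that included 1 (0.937 to 1.32), and it was 1.09 in replicate 1 and 1.02 in replicate 2. With the starts of every biotype it was 1.20, with an interval that left out 1 (1.02 to 1.42). The shapes by distance were not alike. In introns upstream of a start, the density was 298 per Mb within 250 bp and 150 per Mb from 251 to 500 bp, then 76.8 and 54.8 in the first bins of the near-start window. Downstream it was 67.5 within 250 bp, 52.6 from 251 to 500 bp, 75.4 from 501 to 750 bp and 83.2 from 751 to 1000 bp (68.3 to 100.4), before it fell to 53.6. The near-start window thus held the highest intron density on the downstream side within the first 5000 bp, although the intervals of its first 2 bins overlap that of the bin within 250 bp.

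**Figure D1:**
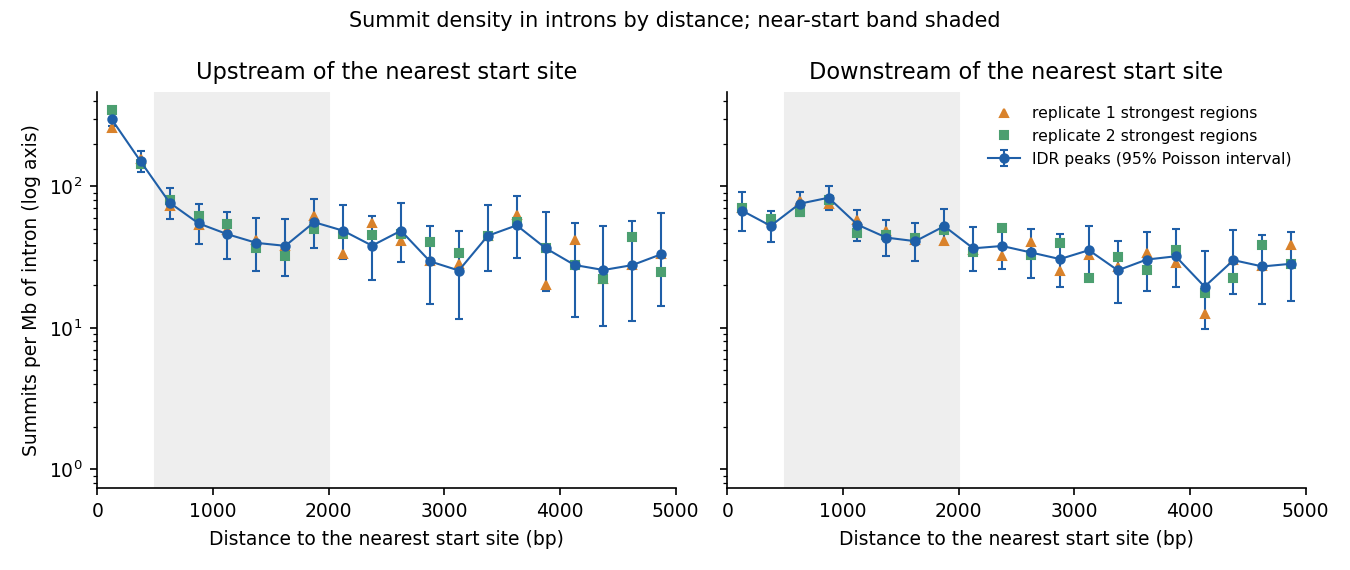
Summits per Mb of intron sequence (log axis) against the distance to the nearest start site, upstream (left) and downstream (right), in bins of 250 bp; circles are IDR peaks with 95% Poisson intervals, triangles and squares the strongest regions of each replicate, and the shaded band is the near-start window. Upstream the density falls from 298 per Mb at the start, while downstream it is highest in the band, at 83.2 per Mb.

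First introns carried most of these peaks. Of the 618 summits, 522 (84.5%) lay in the first intron of at least 1 annotated transcript, against 64.3% of the eligible bases. First introns held 75.5 summits per Mb and other introns 25.02 per Mb, a ratio of 3.02 (2.42 to 3.79). The ratio was 3.37 (2.68 to 4.27) in the list of replicate 1 and 2.53 (2.05 to 3.14) in that of replicate 2.

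First introns were denser in each distance bin. From 501 to 1000 bp first introns held 93.4 per Mb and other introns 32.6 per Mb. From 1001 to 1500 bp the densities were 61.4 and 21.5 per Mb, and from 1501 to 2000 bp 64.3 and 20.9 per Mb, so the ratio stayed between 2.86 and 3.08. Downstream of a start the ratio was 3.57 (2.58 to 5.05) and upstream 2.66 (1.94 to 3.69). Distal introns showed it too, with 35.7 against 13.6 per Mb and a ratio of 2.62 (2.27 to 3.02), so a preference for first introns was not particular to the near-start window. The introns themselves were of ordinary length: the intron stretch around a member had a median of 2648 bp, and the median over eligible bases was 2471 bp.

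**Figure D2:**
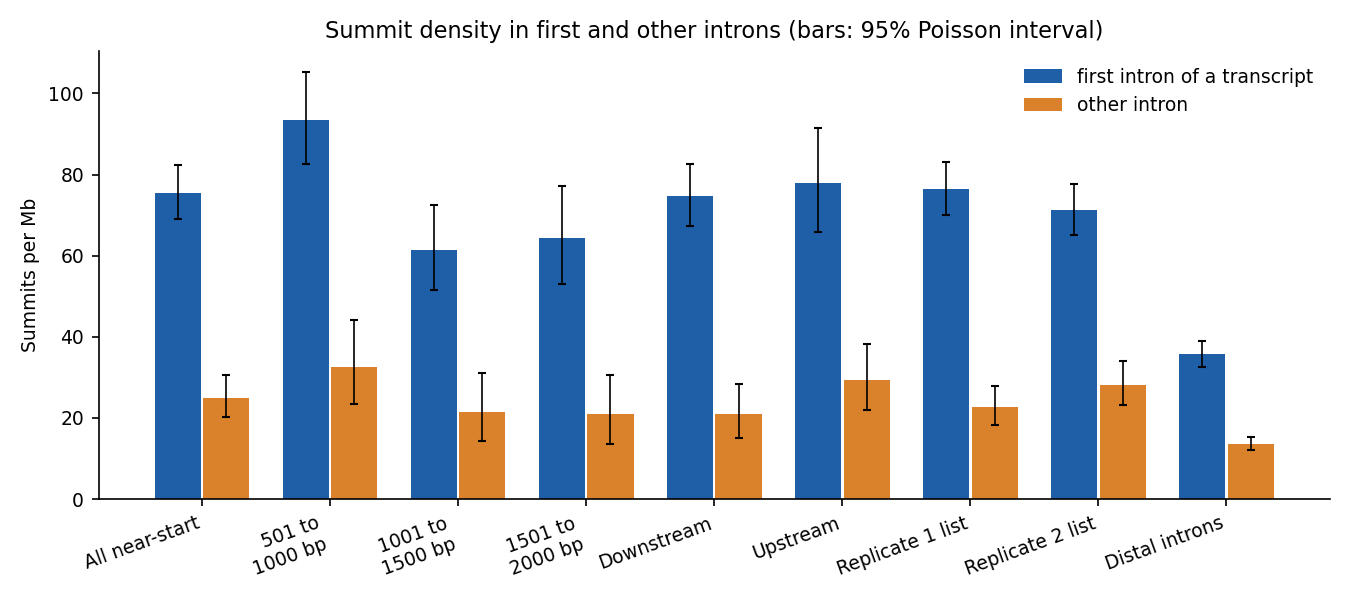
Summits per Mb in first introns (blue) and in other introns (orange), for all near-start introns, by distance, by side of the nearest start, in each replicate's list and in distal introns; error bars are 95% Poisson intervals. First introns are denser in every pair, with ratios from 2.53 to 3.57.

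The nearest start was the host gene's own for most members. It was the first start of the host gene with the summit downstream of it in 224 (36.2%), a later start of the host with the summit downstream in 159 (25.7%) and a later start with the summit upstream in 136 (22.0%). In the rest another gene's start was nearest, that of an ncRNA gene in 54 (8.74%) and of a protein-coding gene in 45 (7.28%). The summit fell inside more than 1 protein-coding gene in 43 members. No member's region reached a TSS, but 60 regions (9.71%) overlapped an exon, and in 11 the intron stretch was shorter than the region.

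Not all members were separate loci. The 618 summits came from 616 regions, and 50 of them had another member within 250 bp, which leaves 593 loci. Regions ran from 102 to 602 bp with a median of 410 bp.

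At the limits of the rule, the nearest members were in lola, which encodes a family of BTB zinc-finger factors (508 bp, signal 245), and dpy, which encodes a giant extracellular matrix protein (509 bp, 139.8). Just outside were Pino and grh, the gene of the epidermal factor Grainy head, both at 500 bp with signals of 150.4 and 167. At the far limit the members in raw (signal 101) and pot (175) lay at 1998 bp, and CG12576 (113) and CG4576 (124) lay outside at 2001 and 2003 bp. Here and below, signal is the authors' own value for a region, on a scale that is not stated, and it is compared only within a list.

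The signals of near-start intron peaks were like those of the other classes. Their median was 149.1 (exact 95% interval 141 to 155), beside 148 for promoter peaks, 146 for distal intron peaks and 143 for intergenic peaks. The lowest was 98.9, near the 98.7 that was lowest over all arm peaks. The highest was 1790, which was the strongest peak on the chromosome arms. That peak stood at rank 19 of the whole IDR list, which also ranks mitochondrial peaks. Of the 500 strongest peaks on the arms, 66 were members, which is 10.7% of members and close to the 10.5% for all arm peaks. Signal did not follow distance: the median was 147 from 501 to 1000 bp, 153 from 1001 to 1500 bp and 148 from 1501 to 2000 bp, with overlapping intervals.

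The member in CG11050 (chr2L:6612342-6612922, gene FBgn0031836) had a signal of 1790 in the pooled list, 1116 in replicate 1 (rank 13) and 661.5 in replicate 2 (rank 26). Its summit lay 1028 bp downstream of a later start of the gene, in an intron stretch of only 140 bp, so its 581-bp region also covered exons. The member in ush (chr2L:480923-481295) had a pooled signal of 1467, with 828 in replicate 1 (rank 25) and 602 in replicate 2 (rank 27). The gene encodes U-shaped, which binds GATA factors, and the nearest start, 1362 bp away, was that of cbt, which encodes the zinc-finger factor Cabut. These leading members stood high in both replicates. Part of this is built in, because both replicates went into the pooled signal by which they were chosen. Ranks here and below count every region of a replicate's list, also those off the arms.

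The member in CG32772 (chrX:4910190-4910663) had a pooled signal of 1228 (rank 24 in replicate 1 and 41 in replicate 2), 1295 bp downstream of the gene's first start. Lk6 encodes a kinase of the translation factor eIF4E, and its member (chr3R:11760858-11761231) had a signal of 1076, with ranks of 35 and 42. In CG9663 a single 602-bp region carried a pair of summits, with signals of 868 and 812, and both met the same region of replicate 2, at rank 65. The first intron held the summit in each of these 3 genes.

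Zw, which encodes glucose-6-phosphate dehydrogenase, came next and had a member of signal 761 (ranks 85 and 56), 855 bp from the start of an antisense RNA gene. In norpA, which encodes the phospholipase C of phototransduction, the signal was 757 (ranks 62 and 73). In crb, whose protein sets apical polarity in epithelia, it was 713 (ranks 61 and 112), 993 bp downstream of the first start.

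CG3726 (signal 688), CG9837 (684) and for (660), the gene of a cGMP-dependent protein kinase, came next. Trl, which encodes the GAGA factor, had a member of signal 585 (ranks 100 and 158) in an intron that is first in no transcript. LPCAT, which encodes a lysophospholipid acyltransferase, had 581, CG42327 578.2 and pum, the gene of the translational repressor Pumilio, 578.2 as well. The list of the 20 strongest closed with CG4496 (555), the apoptosis inhibitor gene Diap1 (543), the RNA-binding protein gene mub (531) and chif (528), whose protein activates the replication kinase Cdc7. All 20 had ranks of 152 or better in replicate 1 and 232 or better in replicate 2, which is again partly built in.

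Agreement of the replicates fell off below these leading peaks. A member counted as held by a replicate where any of that replicate's 4782 strongest regions had a summit within 200 bp. Over all IDR peaks on the arms, 59.2% were held by both replicates. Of the near-start intron peaks 343 were, or 55.5% (51.6 to 59.4), an interval that includes the background. Another 156 were held by replicate 1 alone, 97 by replicate 2 alone and 22 by neither. In the complete lists, 5 members had no match in replicate 1 and 25 none in replicate 2.

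The members were ranked by pooled signal and cut into 4 groups of 154 or 155. The top group, with signals of 216 and above, was held by both replicates in 96.8% of cases, the next in 81.2%, the following in 34.2% and the lowest, up to 113.9, in 9.74%. Part of this order is built in, because both replicates went into the pooled signal that ranks the members. Spearman's correlation of the signals was 0.404 across the 589 members matched in both lists, given as a description since members share libraries. Matched summits lay close together, with a median offset from the IDR summit of 16 bp in replicate 1 and 17 bp in replicate 2.

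**Figure D3:**
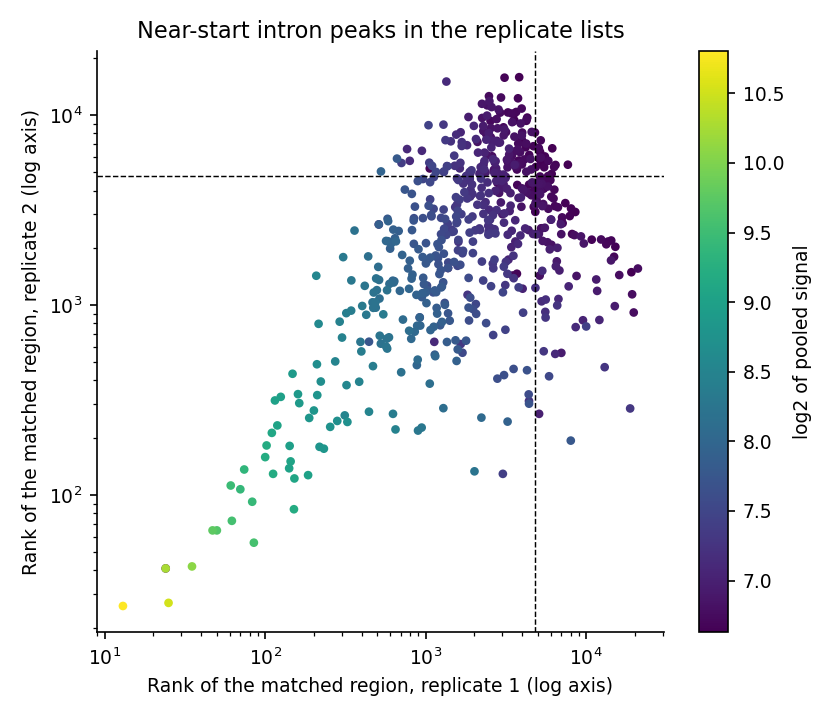
Rank of the matched region in replicate 1 against that in replicate 2 (both log axes) for the 589 near-start intron peaks matched in both lists, coloured by log2 of the pooled signal; dashed lines mark rank 4782. Strong members lie along the diagonal, and weak ones spread past 1 line or the other.

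Summits in near-start introns were richer in A and T than the sequence beside them. Within 100 bp of the summit the mean was 63.0% A and T (SD 7.32, n = 618 members), against 58.9% (SD 6.26) in windows 600 bp to either side and 60.2% over all near-start intron sequence, cut into 53493 windows of 201 bases. The flanking windows were placed by distance alone and can reach exons or promoters. Distal intron peaks had 63.4%, and promoter peaks 62.6% with flanks of 55.0%. Right at the summit, in windows of 21 bases, members reached 65.9% A and T. On both sides the composition fell below the mean of near-start introns, to 57.6% at 200 bp on the lower-coordinate side and 56.9% on the higher.

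The replicates did not agree on this composition. The near-start intron summits of the strongest regions of replicate 1 had 64.6% A and T (SD 6.24, n = 615 summits) and those of replicate 2 had 59.6% (SD 8.06, n = 600). The 95% interval of the latter mean, 59.0 to 60.3, includes the 60.2% of near-start intron sequence. At the regions of each list that matched a member, the means were 63.5% and 62.2%. The excess of A and T over intron sequence was therefore present in the IDR list and in replicate 1 but not in the strongest set of replicate 2.

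**Figure D4:**
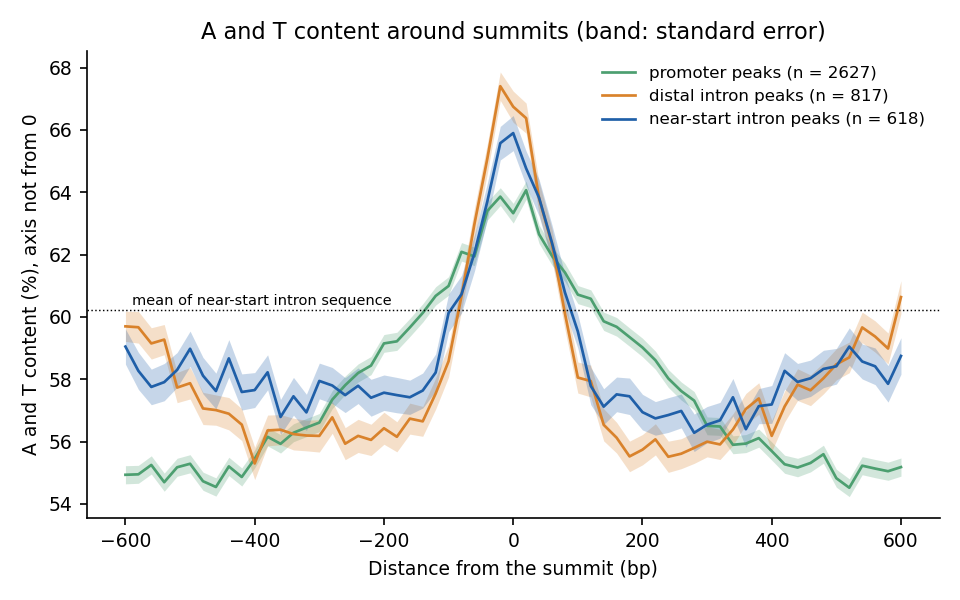
Mean A and T content (percent, axis not from 0) in windows of 21 bases against the distance from the summit, for promoter, distal intron and near-start intron peaks; bands are standard errors and the dotted line is the 60.2% mean of near-start intron sequence. Members rise to 65.9% at the summit and lie below the dotted line on both sides.

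Over the mean of both flanking windows, which were not restricted to introns, the GA repeat word was the most raised of the 10, at 1.62 times. Against the lower-coordinate flank alone TAATTA led, at 1.615 times, with GAGAGA at 1.41 times. Against the higher-coordinate flank GAGAGA was at 1.89 times and TAATTA at 1.21 times. GAGAGA, the repeat recognised by the GAGA factor and also by the factor CLAMP, lay within 100 bp of the summit in 123 members, 19.9% (16.9 to 23.2). It was in 12.3% of flanking windows, in 7.88% of the 53493 windows of near-start intron sequence, in 15.9% of distal intron peaks and in 13.8% of promoter peaks. The excess over near-start intron sequence was 12.02 percentage points (Newcombe 95% interval 9.06 to 15.4). The excess over promoter peaks was 6.12 points (2.86 to 9.68), and that over distal intron peaks 3.99 points (0.00848 to 8.07), an interval that barely leaves out 0 and that included it with the starts of every biotype (-0.435 to 7.56). Among the strongest regions of each replicate, 13.3% of near-start intron summits of replicate 1 and 23.7% of those of replicate 2 held it, so the replicates differed from each other by more than members differed from promoter or distal intron peaks.

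The homeodomain core TAATTA was in 105 members, 17.0% (14.2 to 20.2), against 12.3% of flanking windows and 12.6% of distal intron peaks. The difference from distal intron peaks was 4.38 points (0.695 to 8.18). Promoter peaks held the word in 16.1%, and the difference from them, 0.850 points, had an interval that included 0 (-2.27 to 4.29). Against all near-start intron sequence, where 15.4% of windows held the word, the difference was 1.62 points with an interval that included 0 (-1.16 to 4.79). For TAATTA and GAGAGA alike, the difference from distal introns turned negative in the strongest regions of replicate 1 taken alone, at -0.488 and -0.848 points, with intervals that included 0.

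The repeat word CACACA was in 22.0% of members and 17.3% of near-start intron windows, an excess of 4.73 points (1.62 to 8.17), but in 24.1% of flanking windows. The other words were near the level of the intron sequence or below it. TAACTA was in 9.87% of members and 10.5% of near-start intron windows, and AGATAA, which holds the GATA core, in 15.2% and 13.3%. The E-box CAGCTG was in 8.41% and 7.54%, TCAAGTG, a site type known for NK-2 homeodomains, in 3.88% and 4.09%, and CAGGTA, the core of Zelda sites, in 3.07% and 4.42%.

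Promoter words were rare in members and in near-start intron sequence alike. The rule itself leaves out summits within 500 bp of a start, where promoter peaks lie. TATCGATA, the DNA replication-related element, was in 2 members (0.324%, 0.0888 to 1.17) and in 8.83% of promoter peaks. GGTCACAC, a core promoter word, was in 3 members (0.485%) and in 4.72% of promoter peaks. Both differences left out 0, at -8.51 points (-9.68 to -7.18) and -4.23 points (-5.17 to -3.04). Near-start intron windows held these words at 0.359% and 0.293%, and the differences of members from these had intervals that included 0 (-0.276 to 0.815 and -0.132 to 1.12 points). The flanking windows held them at 0.728% and 1.46%, above the members.

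Among all 6-letter words in 5% or more of member windows, 1322 words with each read on both strands, the 5 most raised over the flanks were led by GAGTAC. It was in 5.18% of members and 2.10% of flanking windows, but in 4.12% of all near-start intron windows. The word ACTGTA was in 15.7% of members, 2.00 times the share in flanks and 2.14 times that in near-start intron windows, where 7.32% held it. The word CCTGTA was in 6.31% of members and 3.78% of such windows, GTACCA in 6.15% and 3.59%, and CTGTAC in 8.74% and 4.40%, with folds over flanks of 2.00, 1.95 and 1.93. All but GAGTAC and GTACCA share the letters CTGTA, so their matches can overlap.

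Members held by a single replicate had different sequences. Those held by replicate 2 alone had 56.2% A and T (SD 7.79, n = 97 members), and those held by replicate 1 alone 64.3% (SD 5.67, n = 156 members). GAGAGA was in 34.0% of the former and 14.1% of the latter, a difference of 19.9 points (9.19 to 30.8). CACACA followed the same way, at 35.1% and 19.9%, and TAATTA the other way, at 6.19% and 19.2%, a difference of -13.0 points (-20.7 to -4.46). Distal intron peaks and promoter peaks showed the same split, with GAGAGA higher by 10.9 and 23.6 points in peaks of replicate 2 alone. Members held by both replicates had 64.2% A and T and GAGAGA in 18.7%. The part of base composition in this split was not tested.

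**Figure D5:**
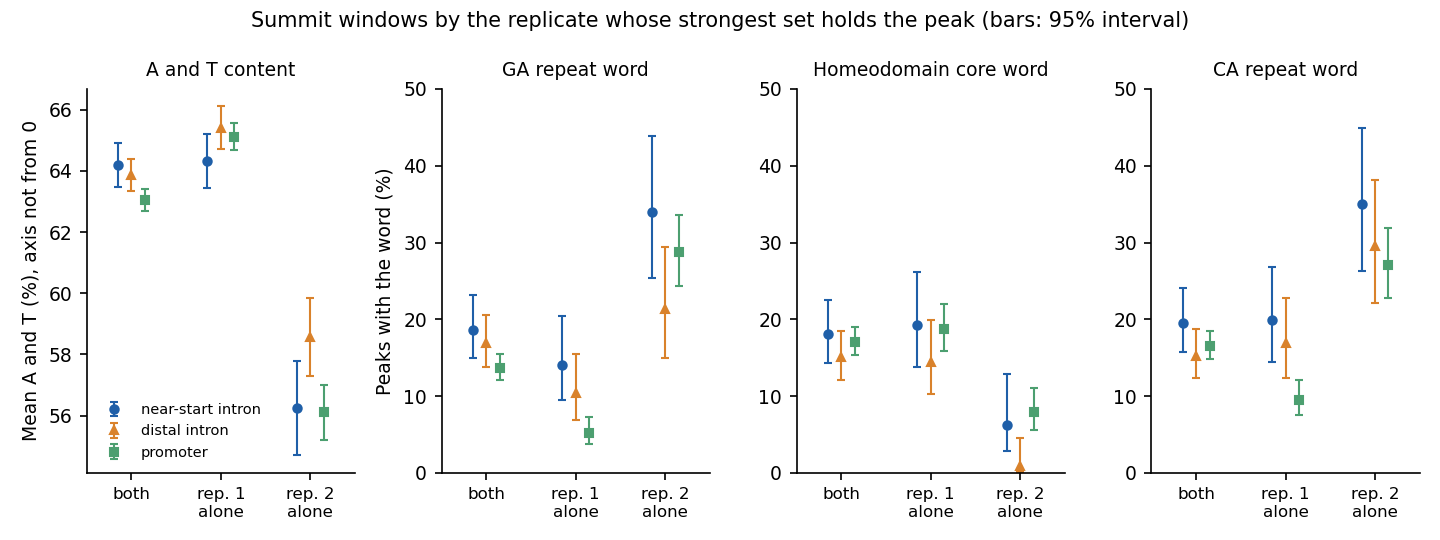
Mean A and T content (left, percent, axis not from 0) and the percent of peaks with each of 3 words (GAGAGA, then the homeodomain core TAATTA, then CACACA), for near-start intron, distal intron and promoter peaks held by both replicates, by replicate 1 alone or by replicate 2 alone; bars are 95% intervals. In all 3 classes, peaks of replicate 2 alone have less A and T, more of the GA and CA repeats and fewer TAATTA words.

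More than 1 in 3 near-start intron peaks accompanied a peak at the promoter. In 232 members, 37.5% (33.8 to 41.4), another IDR summit lay within 500 bp of the nearest TSS. Of all 22617 TSS positions 18.0% had such a summit. For distal intron peaks the share was 32.7%, and the difference of 4.86 points had an interval that reached 0 (-0.114 to 9.85). For intergenic peaks it was 19.6%. The share was 34.4% for members at 501 to 1000 bp, 38.0% at 1001 to 1500 bp and 44.0% at 1501 to 2000 bp, with overlapping intervals. It was 31.1% in the list of replicate 1 and 43.8% in that of replicate 2, and 27.6% and 52.6% in members held by replicate 1 or replicate 2 alone. Signals were alike with and without a promoter peak, with medians of 146 and 152. The nearest other summit lay at a median of 1758 bp from a member, 3196 bp from a distal intron peak and 3400 bp from a promoter peak.

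The members fell in 516 of 13945 protein-coding genes, 3.70%, or 5.71% of the 9036 genes that have any near-start intron sequence. Of these genes, 404 held a single member, 88 held 2, 18 held 3, 3 held 4 and 3 held 6. Hosts had far more room: their median near-start intron sequence was 2.99 kb, against 0.380 kb for all genes that have any. The part of length in which genes are hosts was not tested.

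The genes with 6 members were shn, Tlk and CG1677. The members of shn, which encodes Schnurri, a zinc-finger factor of the Dpp pathway, had signals of 429, 253, 125, 113, 106 and 103, and the strongest stood at rank 254 in replicate 1 and 228 in replicate 2. Tlk encodes the Tousled-like kinase, and its members ran from 132 to 259. In CG1677, which spans a long stretch of X, the members ran from 128 to 330 and lay near starts of other genes: unc-119, Dok, CBP and brk, the gene of the Dpp repressor Brinker, 773 bp from a member of signal 242. The member of signal 330 lies inside Dok as well. In CG1677 and in Tlk a pair of members matched the same region of replicate 2, so their 6 members are fewer loci.

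Svil, an actin-binding protein gene, and Tpr2, a co-chaperone gene, were among those with 4. The 18 genes with 3 members were CG15365, CG42327, CG9837, CHES-1-like, Eip75B, InR, Smr, Socs36E, Trl, brat, ena, fru, lbk, lola, pnt, sbb, tai and tna. They include signalling genes, such as InR, the insulin receptor, Socs36E, an inhibitor of JAK/STAT signalling, and pnt, the ETS effector of MAPK signalling. They also include chromatin and coactivator genes, such as Smr, a corepressor, and tai, a coactivator of the ecdysone receptor. The highest signals in CHES-1-like, a forkhead gene, were 475 and 473, and those in tai 306 and 291.

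The genes of 15 lists by textbook role are given beside the 3.70% and the 57.5 members per Mb of all near-start introns. A gene held a member where the summit lay inside it, also where another gene's start was nearest. That was so for the strongest members of kirre, mam, brm, br and NetB, among others. Of the BTB and GAGA factor genes, 7 of 13 held a member: Trl, lola, fru, psq, mod(mdg4), chinmo and br. They held 15 members, 248 per Mb of their near-start introns (139 to 409). In Trl the 3 signals were 585, 266 and 132, in lola the highest was 245 and in fru 234. The summit of psq with a signal of 208 stood at rank 1018 in replicate 1 and had no match in replicate 2. In Trl, fru and psq a pair of members matched the same region of replicate 1, so these 15 members are fewer loci.

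Signalling lists also held members. In the FGF and EGF pathways 7 of 17 genes did, with 11 members at 183 per Mb (91.5 to 328). Krn, which encodes an EGFR ligand, led with 297, followed by pnt (147.5), spi, the main EGFR ligand gene (132), and Ras85D (116), with Egfr, sty and aop below. In the Dpp pathway 4 of 14 did, at 217 per Mb (99.1 to 411): shn (429), the type II receptor gene put (156), the inhibitory Smad gene Dad (122) and the Smad gene Mad (102), where shn alone gave 6 of the 9 members. In the Wnt, Hedgehog and segment polarity list 5 of 22 did, at 122 per Mb (49.0 to 251): sgg, the GSK-3 kinase gene (215), the receptor genes fz2 (151.9) and fz3 (112), the feedback inhibitor gene nkd (151.5), and the co-receptor gene arr (102). In the Notch pathway 2 of 14 did, with 3 members at 87.0 per Mb (17.9 to 254): neur, a ubiquitin ligand gene (353), and mam, a coactivator gene (242.5).

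In the ecdysone cascade 5 of 13 genes held a member, at 114 per Mb (52.1 to 216): Eip75B (185), Eip74EF (184), Hr4 (175), Hr3 (122) and br (109). In the Polycomb and Trithorax groups 4 of 16 did, at 212 per Mb (68.7 to 494): osa (282) and brm (236) of the SWI/SNF complexes, ph-p of the Polycomb complex PRC1 (207) and the remodeller gene kis (172). The intervals of the BTB and GAGA, FGF and EGF, Dpp, and Polycomb and Trithorax lists lie above 57.5 per Mb. Those of the Wnt list, the Notch list and the ecdysone list include it. These intervals treat members of a gene as independent, br counts in both lists that name it, and the lists are described and not tested. Not all of these members were held by both replicates. The member of br stood at rank 19735 in replicate 1 and 912 in replicate 2, and that of Dad at 11530 and 1361.

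The genes tied to the muscle and heart role of Lbe held members at densities whose wide intervals all include 57.5 per Mb. Of 20 muscle identity factor genes 1 held a member, twi, with a signal of 108 at ranks 4111 and 5830, nearest to the start of CG9896 (23.6 per Mb, 0.597 to 131). Of 15 mesoderm and heart factor genes 2 did, zfh1 (188) and how (139), at 48.1 per Mb (5.83 to 174). The member of how stood at rank 8586 in replicate 1 and 764 in replicate 2. In the fusion and adhesion list 5 of 18 did, at 48.2 per Mb (15.7 to 113): mbc (202), kirre (184), Msp300 (177), the integrin gene mys (129) and the talin gene rhea (113). The member of kirre was nearest to a start of CG32795. Of 20 contractile genes 1 did, the tropomyosin gene Tm1 (153), at 26.8 per Mb (0.679 to 150). Within 10000 bp of lbe or of its neighbour lbl there were 0 members.

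Of 24 neural factor and guidance genes 3 held a member (12.5%), at 54.7 per Mb (11.3 to 160): elav, a neuronal RNA-binding protein gene (221), NetB, a Netrin gene (116), and sli, the Slit gene (101). Of 12 Hox and cofactor genes 0 did in 40.3 kb of near-start introns, which at this number of genes allows a share of up to 25% (3 counts). Of 25 ribosomal protein genes and 20 odorant and gustatory receptor genes 0 did. These have only 4.60 kb and 5.45 kb of near-start intron in all, so no difference from other genes was detectable.

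Along the pooled list of peaks and background, ranked by signal, the share of near-start introns rose slightly below the top ranks. It was 13.2% (12.3 to 14.1) in ranks 1 to 5000 and 15.3% (14.4 to 16.4) in the next 5000, then between 14.8% and 16.3% in each following 5000, against 8.04% of the sequence of the arms. Over the same ranks, promoters fell from 54.8% to 17.1%, close to their 13.1% of the sequence, and distal introns rose from 17.4% to 31.1%. The lower ranks hold background regions by design, and near-start introns were over their share of the sequence there as well.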

How the data were processed

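Lists of regions in narrowPeak format were deposited for each replicate, for both pooled and for the IDR peaks. The dm6 lists were used and the dm3 lists were not. The sources used here do not name the aligner or the peak caller. Every listed region carries the signal deposited by the authors, called against a control, a −log10 q-value, which the authors' list caps at 1 value for all IDR peaks and was not used, and the deposited summit offset. Depth is unknown. Regions were placed on the Ensembl release 115 annotation BDGP6.54 and RefSeq release 6 sequence with Python 3.11.15, numpy 2.4.6, pandas 2.3.3 and scipy 1.17.1, and figures used matplotlib 3.10.9. Soft-masked bases were kept.

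No p-value was computed: with 1 group there is no contrast of conditions. Intervals are Wilson, Newcombe, exact Poisson, exact conditional and order-statistic, all 95%. The Newcombe, exact conditional and order-statistic intervals were tested on simulated data, and the Wilson and exact Poisson intervals were not tested by themselves. Replicates are separate embryo samples.

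Members, gene lists and words were chosen with earlier results of these data known. Named are the 20 members of highest signal, 2 peaks on each side of each limit, genes with 3 or more members (1 is not reported here), up to 4 genes per list by signal (others of a list are named after their values were seen), members near lbe or lbl, and the 5 most raised 6-letter words. First introns, intron length, nearest summits, repeat masking and the sets held by 1 replicate were added after the data were seen. Alternatives were other TSS sets, region midpoints, stronger peaks, each replicate alone, other overlap rules, windows and flanks.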

Additional observations from a re-analysis of the deposited data

How the results depend on the processing

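Of the alternative values, 154 stayed within the interval of the reported value (counts within 1.5 times), 26 moved and 2 reversed. With the starts of every biotype, the density ratio to distal introns was 2.34. With the stronger 2376 peaks there were 320 members in 292 genes, 88.4% were held by both replicates, 63.9% of bases were A and T, and 20.6% had a promoter peak; fewer peaks by construction lower the counts and the last share. That last share was 24.8% with a window of 200 bp and 46.4% with 1000 bp. The share held by both replicates was 50.2% with summits within 100 bp and 30.9% with the strongest 2391 regions. A and T content within 50 bp was 64.8%. Leaving out each replicate gave 31.1% to 43.8% for the promoter peak share, 62.0 to 96.7 for the median signal (other lists, whose scales may differ), and 62.2% to 63.5% for A and T content. Words that set members apart from distal introns numbered 2 of 10, TAATTA and GAGAGA. With protein-coding starts alone there were 3, with CACACA added, and with the starts of every biotype 2, where GAGAGA was lost (3.53 points, -0.435 to 7.56) and CACACA gained (4.78, 0.620 to 8.99). The number was 1 with region midpoints, 0 within 50 bp, 0 in the stronger peaks, and 0 to 1 leaving out each replicate. In settings added after the data were seen, each replicate's own summits, A and T content was 59.6% without replicate 1 and 64.6% without replicate 2, with 0 and 1 words. The 1 word was TATCGATA (0.650 points, 0.0370 to 1.66), which only 0.650% of those summits held. Without replicate 2 the differences for TAATTA and GAGAGA reversed, to -0.488 and -0.848 points; the cause was not tested. No paired analysis was possible because there is only 1 group.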

Other observations

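Repeat-masked sequence, the lower-case bases of the reference, was more common at near-start intron summits than in near-start intron sequence as a whole. It made up 22.2% of the bases within 100 bp of the 618 summits, 24.0% at distal intron peaks and 17.0% of near-start intron sequence. Windows with over 20% masked bases were 52.9% of members and 36.9% of near-start intron windows. Simple repeats such as GA and CA runs are masked as well, so these values overlap with the word counts.

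Within the members, the GA repeat did not follow signal. GAGAGA was in 19.4%, 22.1%, 18.1% and 20.1% of the 4 groups of members from the highest to the lowest pooled signal, with overlapping intervals. The share in first introns was 87.1%, 81.2%, 84.5% and 85.1% over the same groups.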
